A study of Mus musculus with 34 samples.

Results

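Lists of accessible positions were compared here: mouse embryonic fibroblasts (MEF) with Brg1 knockdown after 1 day of doxycycline, which switches on Etv2, and Brg1-knockdown MEF of the same day without doxycycline. All summits on chromosomes 1 to 19 and X were taken, a summit being the base of highest signal in a called peak or in a section of it. The doxycycline list held 26882 summits and the list without doxycycline 35635, together 62517 of the 707465 summits in the 19 lists of the series. A summit with a partner within 250 bp in the other list was counted as shared, and the rest as induced-only or uninduced-only. This gave 7109 induced-only and 16359 uninduced-only summits. No measured level chose the positions beyond these calls.

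The series followed chromatin accessibility by ATAC-seq, a method that reads where a transposase can reach the DNA, in MEF and in embryoid bodies (EB, clumps in which embryonic stem cells differentiate) that carry an inducible, HA-tagged Etv2. The labels give 34 samples in 17 groups of 2, and 4 of these samples stand behind the day-1 knockdown lists. Both groups carry the inducible Etv2 (named iHA-Etv2) and the Brg1 knockdown, are labelled as not Flk1-positive, and differ in doxycycline alone. The other groups used below are Brg1-knockdown MEF with doxycycline and without doxycycline on days 2 and 7, Brg1-knockdown MEF on day 0 without doxycycline, MEF with no knockdown label with doxycycline on day 1 and, Flk1-positive, on day 7, MEF with no knockdown label without doxycycline (day 0), and EB at 12 h with doxycycline, with doxycycline and Flk1-positive, and without doxycycline. The labels give neither the reagent nor the depth of the knockdown, and they name no separate cultures or animals behind the replicates. Each condition has 1 summit list, which stands for both of its replicates, and so 1 value per measure. There is no replicate error and no test. The 95% intervals (exact, Clopper-Pearson) cover counting error only, and neighbouring summits are not independent. Read depth was not analysed here.

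Etv2 is an ETS-family transcription factor that acts briefly in the embryo and directs mesoderm to the endothelial and blood lineages, and forced expression moves fibroblasts towards an endothelial state. ETS factors bind short DNA words around GGAA. Brg1, encoded by Smarca4, is an ATPase that drives the SWI/SNF (BAF) remodelling complexes, which use ATP to move nucleosomes and open chromatin for transcription factors. Fibroblast identity is held in large part by distal elements bound by AP-1 and TEAD factors.

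The sequences below are RefSeq promoter windows (GRCm38.p6, the mm10 assembly), from 250 bases before to 50 bases after a gene's start, written 5′ to 3′ on the strand of the gene. They are shown because they hold the highest-scoring unshared summits at a start site that recurred in other lists. The first 3 hold an induced-only summit that was absent from every knockdown list without doxycycline and from uninduced MEF, and present in induced knockdown MEF of day 2 and in induced MEF of day 1. Capitals mark the ETS words CAGGAAG or CCGGAAG on either strand. The AP-1 word TGANTCA was marked likewise and none of the 6 windows holds it. Gm51752 is at chr1:165717670-165717969 (plus strand, summit at base 250 of the window, 7856 bp from Rcsd1), Adgrf5 at chr17:43360181-43360480 (plus strand, summit at base 85) and Arhgef7 at chr8:11779034-11779333 (plus strand, summit at base 252).
Gm51752: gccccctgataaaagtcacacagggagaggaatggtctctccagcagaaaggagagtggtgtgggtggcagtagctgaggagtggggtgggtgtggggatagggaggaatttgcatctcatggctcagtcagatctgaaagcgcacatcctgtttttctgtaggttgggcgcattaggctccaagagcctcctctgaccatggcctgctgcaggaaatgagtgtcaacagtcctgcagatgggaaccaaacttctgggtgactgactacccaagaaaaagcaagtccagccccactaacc
Adgrf5: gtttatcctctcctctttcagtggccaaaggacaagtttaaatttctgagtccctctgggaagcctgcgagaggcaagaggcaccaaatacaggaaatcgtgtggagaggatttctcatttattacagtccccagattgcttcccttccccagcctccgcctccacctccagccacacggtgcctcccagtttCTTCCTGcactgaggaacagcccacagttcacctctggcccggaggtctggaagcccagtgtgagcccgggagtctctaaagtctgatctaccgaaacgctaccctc
Arhgef7: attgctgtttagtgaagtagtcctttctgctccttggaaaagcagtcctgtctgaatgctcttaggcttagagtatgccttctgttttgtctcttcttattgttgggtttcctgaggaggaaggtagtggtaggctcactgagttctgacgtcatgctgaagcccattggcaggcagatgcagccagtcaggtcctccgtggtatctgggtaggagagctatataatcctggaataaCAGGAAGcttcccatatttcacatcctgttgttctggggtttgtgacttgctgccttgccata
The next 3 hold an uninduced-only summit that was absent from every knockdown list with doxycycline and present in uninduced knockdown MEF on days 0 and 2. Msh5, a mismatch-repair family gene of meiosis, is at chr17:35046573-35046872 (minus strand, summit at base 39). Speg, a kinase gene of striated muscle, is at chr1:75399835-75400134 (plus strand, summit at base 189). LOC117997403, whose window overlaps the start of Abhd17c, is at chr7:84151890-84152189 (plus strand, summit at base 244).
Msh5: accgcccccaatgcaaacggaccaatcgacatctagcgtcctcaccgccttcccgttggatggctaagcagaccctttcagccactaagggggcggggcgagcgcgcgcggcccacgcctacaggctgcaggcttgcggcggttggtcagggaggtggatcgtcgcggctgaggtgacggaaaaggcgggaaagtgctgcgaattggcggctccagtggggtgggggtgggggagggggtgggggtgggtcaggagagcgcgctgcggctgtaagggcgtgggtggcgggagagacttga
Speg: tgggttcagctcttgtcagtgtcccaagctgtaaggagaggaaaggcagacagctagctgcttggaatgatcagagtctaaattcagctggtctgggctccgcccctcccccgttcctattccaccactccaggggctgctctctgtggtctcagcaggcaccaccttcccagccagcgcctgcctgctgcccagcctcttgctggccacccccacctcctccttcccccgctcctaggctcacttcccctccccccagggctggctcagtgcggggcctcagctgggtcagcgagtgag
LOC117997403: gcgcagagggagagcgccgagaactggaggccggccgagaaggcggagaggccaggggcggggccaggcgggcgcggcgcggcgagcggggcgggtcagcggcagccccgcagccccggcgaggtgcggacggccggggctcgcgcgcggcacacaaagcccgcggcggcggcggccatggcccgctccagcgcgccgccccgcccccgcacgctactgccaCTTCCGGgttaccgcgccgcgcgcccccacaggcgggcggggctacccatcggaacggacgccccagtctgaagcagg
The Adgrf5 window, with its summit at base 85, holds CTTCCTG, the reverse complement of CAGGAAG, from base 194. The Arhgef7 window holds CAGGAAG from base 238. The Arhgef7 summit lies inside that gene, 51284 bp from the nearest gene end. The window of LOC117997403 holds CTTCCGG from base 223. The Gm51752 window, whose summit scored highest of the 3 induced-only ones (16.1), holds neither ETS word, and nor do those of Msh5 and Speg. A match of letters is a description and not a binding site.

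One day of doxycycline in knockdown fibroblasts went with fewer called positions, and those that were called lay largely where the uninduced cells already had one. Of the doxycycline list, 73.6% (73.0 to 74.1%) was shared and 26.4% (25.9 to 27.0%) was induced-only. Of the list without doxycycline, 54.1% (53.6 to 54.6%) was shared and 45.9% (45.4 to 46.4%) was uninduced-only. A position open in fewer cells and a position less open in each cell cannot be told apart in such bulk samples. The number of summits in a list also grows with sequencing depth, and its part in these counts was not tested. With equal numbers of highest-scoring summits (26882 from each list) there were 8502 induced-only and 9088 uninduced-only summits, and 68.4% was shared. With lists of equal length, the unshared counts can differ only where several summits match the same partner. The smaller excess of uninduced-only over induced-only summits at equal numbers is thus set by the equal lengths and is not a separate result. Weak summits of the longer list no longer counted there, either as uninduced-only or as partners.

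Scores are the −log10 q values of the peak caller, as deposited by the authors, and are compared within a list only. Induced-only summits were weak members of their list, with a median score of 3.61 against 7.86 for shared summits of the same list. Uninduced-only summits had a median of 4.40 against 14.7 for shared summits of theirs. With each list cut into 10 equal bins by score, 92.6% of the highest bin of the doxycycline list and 97.8% of that of the list without doxycycline was shared. In the lowest bin these shares were 47.1% and 13.5%. A score of at least 10 was reached by 773 induced-only summits (10.9%) and by 2141 uninduced-only summits (13.1%).

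**Figure D1:**
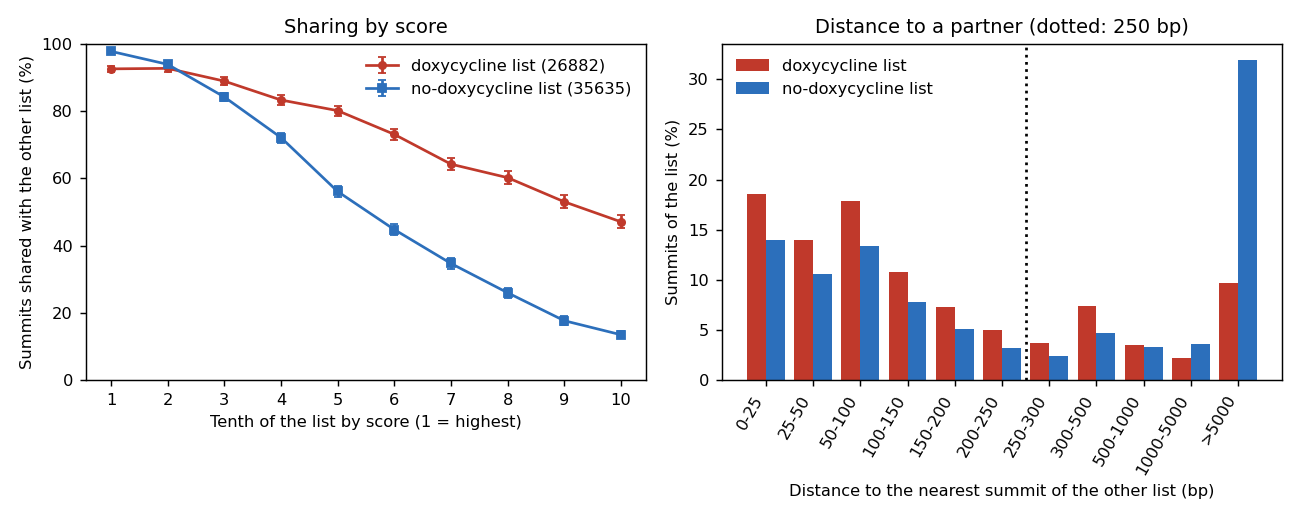
Left: percent of summits shared with the other day-1 knockdown list, in 10 equal bins of each list in order of score (1 is the highest), with exact 95% intervals. Sharing is lowest in the lowest bin, at 47.1% in the doxycycline list and 13.5% in the list without doxycycline. Right: percent of each list by distance (bp) to the nearest summit of the other list, with the 250 bp limit dotted. The bar beyond 5000 bp is the highest of the list without doxycycline.

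Unshared summits were also described by the distance to the nearest summit of the other list. A large distance does not by itself mark a new position. Of induced-only summits more than 1 kb from a partner, 40.0% had a summit in uninduced MEF. In uninduced knockdown MEF of day 2 the share was 26.3%, and in knockdown MEF of day 0 21.2%. Just inside the limit of 250 bp, 1352 summits of the doxycycline list lay 200 to 250 bp from a partner, and 1004 lay just outside, at 250 to 300 bp. Of the induced-only summits, 2978 (41.9%) lay 250 to 500 bp from a summit of the uninduced list, 3193 lay more than 1 kb away and 2611 (36.7%) more than 5 kb away. Of the uninduced-only summits, 2519 (15.4%) lay at 250 to 500 bp, 12658 more than 1 kb away and 11376 (69.5%) more than 5 kb away. Of the 2978 close induced-only summits, the nearest summit of the uninduced list was itself shared for 1752 (58.8%), and of the 2519 close uninduced-only summits the nearest one of the doxycycline list was shared for 1286 (51.1%). The uninduced-only class held mainly positions far from any summit of the doxycycline list. Peaks with several summits show the same, with 45.1% of induced-only summits against 27.5% of uninduced-only summits in such a peak.

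Gene ends were measured as within 1 kb of either end of a protein-coding gene, since the gene table gives no strand. Shared summits of the doxycycline list lay there in 47.8% of cases (47.1 to 48.5%), induced-only summits in 24.9% (23.9 to 25.9%) and uninduced-only summits in 16.9% (16.4 to 17.5%). The order of the unshared classes depended on nearby partners. Among induced-only summits 250 to 500 bp from a partner, 41.6% (39.9 to 43.4%) were at a gene end, and beyond 1 kb only 4.76% (4.05 to 5.56%) were. Among uninduced-only summits the corresponding shares were 34.2% (32.4 to 36.1%) and 11.6%. Matched within 500 bp, 12.8% of induced-only and 13.8% of uninduced-only summits were at a gene end. Inside genes but away from their ends lay 35.2% of induced-only and 41.3% of uninduced-only summits, and more than 50 kb from any gene lay 16.9% and 17.3%.

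No chromosome carried the difference alone. The induced-only share of the doxycycline list ranged from 23.4% to 29.9% over the 20 chromosomes, and the uninduced-only share of the other list from 39.4% to 51.8%. A few repetitive blocks held many summits. A peak of 152 summits in the doxycycline list and 119 in the list without doxycycline covered a block on chromosome 8 (123538448 to 123623616) with 48 annotated ribosomal RNA genes, and 48 of its summits were induced-only and 26 uninduced-only. A peak at the start of chromosome 9 (3001024 to 3037208) held 79 and 65 summits with scores up to 14428 and 8566. Reads in such repeats are hard to place, and no blacklist is given in the sources used here. The highest-scoring induced-only summits, 5 of the 10 in this chromosome 9 block, lay at such sites and within 525 bp of a partner.

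The unshared positions were then looked up in the other lists, which were not used to define them. Induced-only positions had a summit in 48.3% of cases (47.1 to 49.5%) in induced knockdown MEF on day 2, in 36.1% in uninduced knockdown MEF of that day and in 33.9% in knockdown MEF of day 0. In induced MEF with no knockdown label on day 1 the share was 51.1%, against 42.8% in uninduced MEF, although the uninduced list was the longer (50015 summits with doxycycline and 62028 without). Uninduced-only positions had the reverse order, with 44.7% in induced knockdown MEF on day 2, 59.5% in uninduced knockdown MEF on day 2 and 51.6% on day 0, and with 45.5% in induced and 58.2% in uninduced MEF. Shared summits of the doxycycline list recurred in 86.5% or more of cases in each of these 5 lists by their lower bounds. On day 7, when the knockdown lists were short, induced-only positions had a summit in 20.4% of cases with and 18.8% without doxycycline, and uninduced-only positions in 5.83% and 5.64%.

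**Figure D2:**
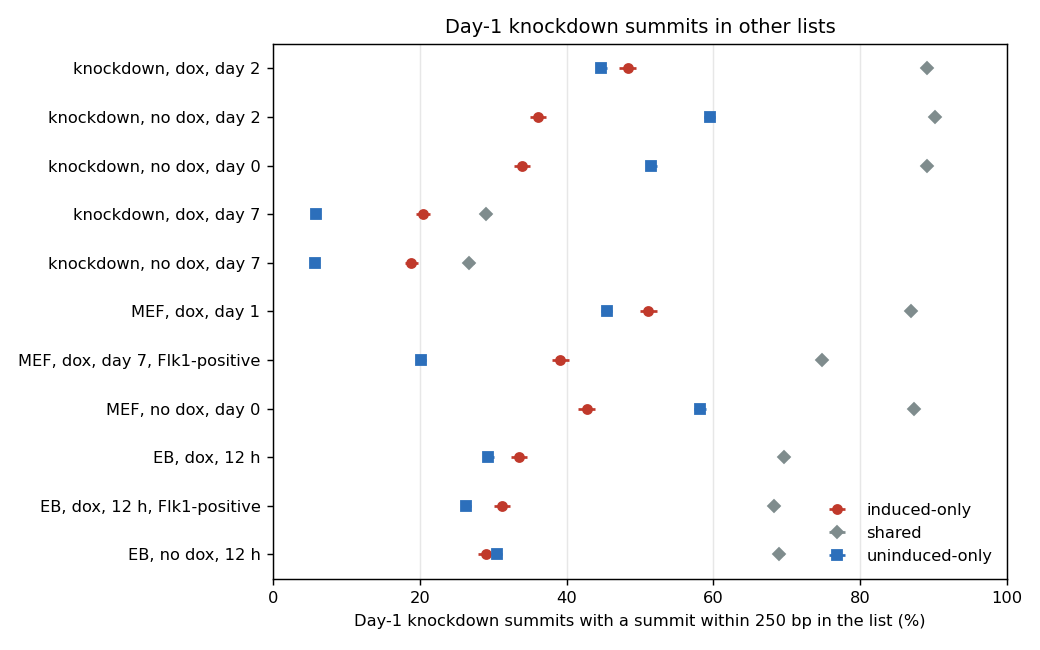
Percent of induced-only, shared and uninduced-only day-1 knockdown summits (shared ones from the doxycycline list) that have a summit within 250 bp in each other list; bars are exact 95% intervals, often smaller than the symbols. Induced-only positions lie to the right of uninduced-only ones in the induced lists of days 1 and 2 (51.1% and 48.3%) and to the left in the uninduced MEF lists of days 0 and 2. On day 7 they lie to the right both with doxycycline (20.4% against 5.83%) and without (18.8% against 5.64%).

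To follow direction rather than presence, each position was scored in a second pair of lists as present with doxycycline only or without doxycycline only. Equal numbers of highest-scoring summits were taken from both lists of a pair, since the pairs differ in length. In knockdown MEF on day 2, 27.7% of induced-only positions (26.6 to 28.7%) were in the doxycycline list only and 11.8% in the other list only. Of uninduced-only positions, 11.6% were in the doxycycline list only and 21.0% in the other list only. Shared positions were even, at 6.82% and 6.69%. Induced-only positions more than 1 kb from a partner repeated their direction more often, with 36.9% against 8.17%.

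The same held in cells with no knockdown label. In MEF on day 1, 22.0% of induced-only positions were in the doxycycline list only and 6.86% in the uninduced list only, and 7.54% and 13.4% of uninduced-only positions were. In Flk1-positive MEF of day 7 the shares were 25.4% and 7.72% for induced-only positions. That pair uses the same uninduced list as the pair of day 1, so the values are not separate evidence, and with all summits the order was the reverse, 15.9% and 19.5%, against a list of 62028. In EB at 12 h, 11.2% of induced-only positions (10.5 to 11.9%) were in the doxycycline list only and 5.19% (4.69 to 5.73%) in the other list only, and for Flk1-positive EB, set against the same uninduced EB list, the shares were 12.1% and 4.39%. Uninduced-only positions had no steady order in EB. At equal numbers they were in the doxycycline list only in 4.52% of cases and in the other list only in 4.51%, for Flk1-positive EB in 5.50% and 4.77%, and with all summits in EB in 4.13% and 5.29%. In knockdown MEF on day 7, 6.09% of induced-only positions were in the doxycycline list only and 6.86% in the other list only, and with all summits 7.60% and 6.08%.

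**Figure D3:**
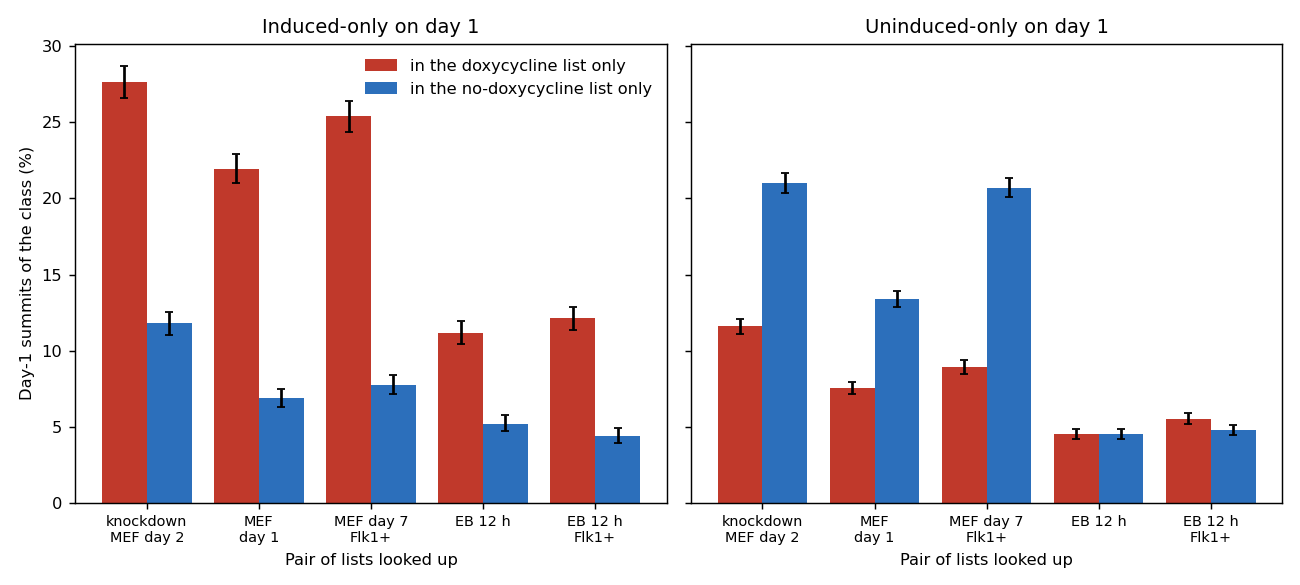
Percent of induced-only (left) and uninduced-only (right) day-1 knockdown positions that another pair of lists holds only with doxycycline (red) or only without (blue), with equal numbers of summits in each pair and exact 95% intervals. For induced-only positions the doxycycline bar is the higher in the 5 pairs drawn, with 27.7% against 11.8% in knockdown MEF on day 2. Knockdown MEF on day 7 is not drawn, and there the order was the reverse (6.09% against 6.86%).

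Within the knockdown arm, 1710 induced-only positions of day 1 (24.1%) were induced-only again on day 2, where they matched 1715 of 11451 induced-only summits. Of the uninduced-only positions, 3936 (24.1%) were uninduced-only again, matching 3953 of 18528 (21.3%). The uninduced day-1 list shared 54.1% of its summits with the doxycycline list of its own day, 72.2% with the uninduced knockdown list of day 0 and 76.6% with that of day 2. At equal lengths of 26882 summits these shares were 66.2%, 75.6% and 77.1%. The doxycycline list of day 1 thus shared less with the uninduced list than the uninduced knockdown lists of days 0 and 2 did. At equal lengths it entered whole, weak summits included, and the longer lists by their highest-scoring summits only. The part of this in the shares was not tested. The short uninduced list of day 7 (11188 summits) was not part of this comparison. The spread between replicates of a condition cannot be set beside it.

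Stricter sets were formed in steps. Of the 7109 induced-only summits, 3109 (43.7%) were in no uninduced knockdown list of any day, 1222 of these were also in induced knockdown MEF on day 2, and 746 of these also in induced MEF of day 1. Of these, 364 were absent from uninduced MEF as well. The EB lists played no part in this choice. Among the 364 positions, 76 (20.9%, 16.8 to 25.4%) had a summit in induced EB and none in uninduced EB, 4 (1.10%, 0.300 to 2.79%) had the reverse and 33 were in both, although the uninduced EB list was the longer. For the uninduced-only class the matching steps gave 431 positions, of which 12 (2.78%) were in induced EB only and 27 (6.26%) in uninduced EB only. The intervals of these shares, 1.45 to 4.81% and 4.17 to 8.98%, overlap. With EB summits looked up within 500 bp, an alternative added after seeing the data, the 364 positions gave 78 in induced EB only and 7 in uninduced EB only, with 63 in both, and within 1000 bp 66 and 7, with 89 in both. Of the 76 positions, 68 lay more than 500 bp from any summit of uninduced EB.

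The 76 recurrent positions were mainly distal. Only 7 lay at a gene end, 36 lay inside a gene, 65 were more than 1 kb and 54 more than 5 kb from any uninduced day-1 summit. In Flk1-positive MEF of day 7 57 of them had a summit and in Flk1-positive EB 50, but in induced knockdown MEF of day 7 only 2 did. By the way the set was formed, they were present with doxycycline in MEF with and with no knockdown label. Their nearest genes were read after these positions were known, and the genes of this paragraph and the next were picked from them for their roles. They include Adgrf5, an adhesion receptor of endothelium, Nrp1, a co-receptor for vascular endothelial growth factor, Plxnd1, a semaphorin receptor that guides vessels, S1pr1, the endothelial receptor for sphingosine 1-phosphate, Prox1, the transcription factor of lymphatic endothelium, and Dusp6, a phosphatase that dampens ERK signalling. Near Prox1 the summit was 79868 bp and near S1pr1 68682 bp from the gene, with scores of 4.73 and 2.80 and a partner 311 and 1248 bp away. Within 50 kb, Prox1 had 0 summits in both day-1 lists, and S1pr1 had 0 induced-only and 2 uninduced-only summits. The share of endothelial genes among the genes nearest the 76 positions was not counted.

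Adgrf5 (chromosome 17, 43360329 to 43459557) shows the pattern at a start site. Its induced-only summit at 43360265, in the window printed above, had a score of 12.8 and lay 64 bp before the gene, with the nearest uninduced summit 33404 bp away. The position was open in induced knockdown MEF on day 2, induced MEF on day 1, Flk1-positive MEF of day 7 and induced EB, and in none of the 5 other lists without doxycycline used here. It had no summit in Flk1-positive EB. A second induced-only summit, at 43376792 inside the gene, had a score of 2.30 and recurred in both induced EB lists and in none of the other MEF lists used here. Upstream, an uninduced-only summit at 43326861 was also present in uninduced knockdown MEF of days 0 and 2, in uninduced MEF, in Flk1-positive MEF and in all 3 EB lists of 12 h.

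Nrp1 (chromosome 8, 128358591 to 128505476) had 4 summits in each day-1 list. The induced-only summit at 128387449, 28858 bp inside the gene, had a score of 8.02 and recurred with doxycycline in knockdown MEF on day 2, in MEF on day 1, in Flk1-positive MEF and in both induced EB lists. No MEF list without doxycycline had a summit within 5 kb of it, the nearest being 5278 bp away. Uninduced EB had a summit 323 bp away, just outside the limit, and the summit of induced EB lay 132 bp away on the same side, so the EB lists do not separate the conditions at this position. At the start of Nrp1 an induced-only and an uninduced-only summit both lay within 1 kb of partners, at 618 and 262 bp. Plxnd1 (chromosome 6, 115954811 to 115995339) had 9 summits with doxycycline and 4 without, of which 6 were induced-only and 1 uninduced-only. Of these 6, the one at 115996476, 1137 bp beyond the gene and 1288 bp from a partner, recurred in all 5 induced lists named for Nrp1 and had a score of 3.19.

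**Figure D4:**
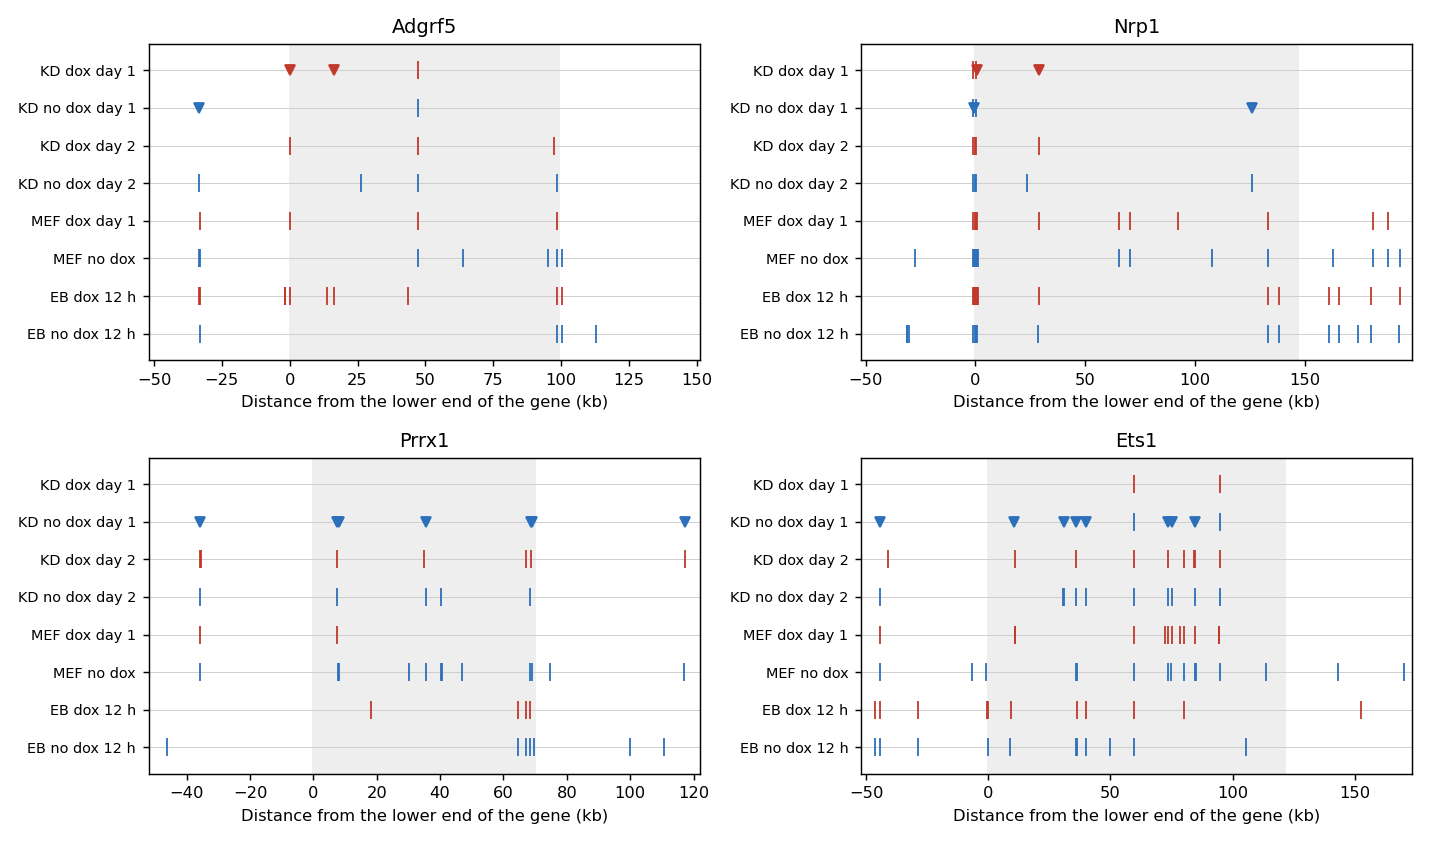
Summits around Adgrf5, Nrp1, Prrx1 and Ets1 in 8 lists, by distance (kb) from the lower-coordinate end of each gene; grey spans the gene, red marks lists with doxycycline and blue lists without, and triangles mark unshared summits of day-1 knockdown MEF. Prrx1 has 0 summits in induced knockdown MEF on day 1, 7 in uninduced knockdown MEF of that day and 7 in induced knockdown MEF on day 2.

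Genes were next described by the unshared summits within 50 kb of them, where neighbouring genes can share a summit. Of 18499 protein-coding genes with a summit in either list, 2889 (15.6%) had more induced-only than uninduced-only summits and 10325 (55.8%) had fewer. With equal numbers of summits, 5378 of 17904 (30.0%) had more and 6186 (34.6%) fewer. Equal list lengths hold the unshared totals close, so the closeness of these equal-number shares is partly set by the method. The median difference over all genes was -1 with all summits and 0 with equal numbers, and each list below is read against these shares. Gene lists were chosen with earlier results of these data known, so their counts are descriptions.

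Endothelial genes, like all genes, had more uninduced-only summits more often than more induced-only ones. Of 62 endothelial genes with a summit, 13 (21.0%, beside 15.6% of all genes) had more induced-only summits. More uninduced-only summits were found for 41 (66.1%, beside 55.8%), and the median was -1. With equal numbers 20 of 60 (33.3%, beside 30.0%) had more and 29 (48.3%, beside 34.6%) fewer (median 0). Both shares were thus above those of all genes. Among their transcription factors, 5 of 24 had more and 17 fewer. Ets1, a founding member of the ETS family, had 2 summits with doxycycline and 10 without, 8 of them uninduced-only. On day 2 the knockdown lists held 9 summits there with doxycycline and 10 without. In MEF with no knockdown label there were 12 with doxycycline on day 1 and 15 without. Mecom, a zinc finger factor of blood stem cells and endothelium, had 2 induced-only and 11 uninduced-only summits, and 4 and 6 with equal numbers. Etv6, an ETS repressor, had 4 induced-only and 2 uninduced-only summits. Sox18, a SoxF factor of vessel and lymphatic development, had 2 induced-only summits and 1 uninduced-only summit, but the induced-only ones lay 351 and 510 bp from a partner and in a 10 kb window the difference was -1.

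Among endothelial receptors and surface genes, 8 of 38 (21.1%, beside 15.6% of all genes) had more and 24 (63.2%, beside 55.8%) fewer. Angpt2, a ligand of the Tie2 receptor, had 5 summits with doxycycline and 3 without, with 2 induced-only summits at scores of 1.82 and 1.54, both present again in induced knockdown MEF on day 2. Pecam1, a junction adhesion molecule, had 5 and 2 summits. Of its 2 induced-only summits, 106613216 lay 263 bp from a partner and 106659730, inside the gene, had a score of 1.36. Stab1, a scavenger receptor of sinusoidal endothelium, had 2 summits with doxycycline and 10 without, 8 of them uninduced-only, or 4 with equal numbers, and Stab2, its relative, 0 and 4. Kdr, which encodes Flk1, had 0 summits in both lists, and so gave no sign of opening at this depth.

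The strict set of 746 was also counted around genes, where 1307 of the 18499 genes had at least 1 of its summits. It held 8 summits near 7 endothelial genes, namely 2 near Nrp1 and 1 each near Adgrf5, Flt4, a receptor for lymphatic growth factors, Podxl, a sialomucin, Ecscr, an endothelial surface protein, Cldn5, a tight-junction claudin, and Emcn, a mucin of capillaries. Only 5 of these 8 were also absent from uninduced MEF. Those near Cldn5 and Emcn and 1 of the 2 near Nrp1 were present there. The mirror set of 1806 uninduced-only summits, which is larger, held 25 summits near 18 endothelial genes, and over all genes it touched 3073. Near fibroblast genes the mirror set held the same numbers, 25 summits near 18 genes. For Flt4 the summit at 49659022 had a score of 7.28 with the nearest uninduced summit 42272 bp away, and it recurred in Flk1-positive MEF of day 7. The gene nearest to this summit was Scgb3a1, 4573 bp away. For Podxl the summit at 31544509, inside the gene, had a score of 2.62 while 4 summits near that gene were uninduced-only. For comparison the set of 746 held 4 summits near 4 fibroblast genes (Sox9, Sparc, Tbx15 and Timp3), 6 near 5 AP-1 and TEAD genes (2 near Amotl2 and 1 each near Batf3, Junb, Maff and Tead4) and 1 near the haematopoietic Lyl1. Of these, 1 fibroblast, 1 AP-1 and TEAD and 0 haematopoietic summits were also absent from uninduced MEF. These lists differ in size and in the DNA they cover, so the counts are not ranked.

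Blood genes did not exceed all genes on the induced side. Of 21 haematopoietic genes, 2 (9.52%, beside 15.6% of all genes) had more induced-only summits and 13 (61.9%, beside 55.8%) more uninduced-only ones. With equal numbers these were 5 (23.8%, beside 30.0%) and 10 (47.6%, beside 34.6%). The 2 higher with all summits were Klf1, the erythroid factor, and Gfi1, a repressor of blood stem cells. Each had 1 induced-only summit and 0 uninduced-only. Hoxa9, a homeobox gene of stem cells that is also used in limb mesenchyme, had 3 summits with doxycycline and 13 without, with 1 induced-only and 10 uninduced-only, and 1 and 4 with equal numbers. Nfe2, an erythroid and megakaryocyte factor, had 0 and 7, and 0 and 4 with equal numbers. Meis1, a partner of Hox proteins, had 2 and 6.

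Fibroblast genes carried many uninduced-only positions. Of 63 with a summit, 6 had more induced-only and 46 more uninduced-only summits (73.0%, beside 55.8% of all genes, median -2), and with equal numbers 17 and 32 of 62 (51.6%, beside 34.6%, median -1). This lean was not particular to them. On the uninduced side endothelial genes had 66.1%, and 48.3% with equal numbers, and the 11 neural genes 72.7% and 45.5%. Prrx1, a homeobox gene of mesenchyme (chromosome 1, 163245119 to 163315145), had 0 summits with doxycycline and 7 without, and the nearest summit of the doxycycline list was 26938 bp from any of them. The strongest, at 163209275, had a score of 15.2. It was present in knockdown MEF on day 0, in both day-2 knockdown lists and in both MEF lists. Induced knockdown MEF on day 2 held 7 summits around Prrx1 and uninduced knockdown MEF 5, and 4 of the 7 uninduced-only positions of day 1 had a summit again in the induced list of day 2. The absence at Prrx1 was therefore seen on day 1 and not on day 2. In MEF with no knockdown label there were 2 summits with doxycycline on day 1 and 12 without.

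Of 21 mesenchymal transcription factors with a summit, 3 (14.3%, beside 15.6% of all genes) were higher and 14 (66.7%, beside 55.8%) lower. With equal numbers 6 of 20 (30%, beside 30.0%) were higher and 9 (45%, beside 34.6%) lower. The 3 higher with all summits, Mkx, Sox9 and Meox1, each had 1 induced-only summit and 0 uninduced-only. The lowest besides Prrx1 were Prrx2, Runx2 and Nfatc4. Prrx2 had 2 summits with doxycycline and 8 without, 6 of them uninduced-only, but 1 with equal numbers. Runx2, the regulator of bone-forming cells, had 1 induced-only and 6 uninduced-only summits on day 1, and 1 and 3 with equal numbers. Nfatc4, a calcineurin-dependent factor, had 3 and 8, and 3 and 5 with equal numbers. Among effectors, S100a4, for a calcium-binding protein also called fibroblast-specific protein, had 2 induced-only and 7 uninduced-only summits in both settings, and Fbn1, for the microfibril protein fibrillin, had 1 and 6. Loxl2, a collagen cross-linking enzyme, had 2 and 6, and 2 and 3 with equal numbers. Col1a2, a chain of collagen type I, went the other way with 11 summits with doxycycline and 7 without, 4 induced-only and 1 uninduced-only. On day 2 it had 2 and 8.

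Of 22 AP-1 and TEAD genes, 1 had more induced-only and 15 more uninduced-only summits (68.2%, beside 55.8% of all genes), and with equal numbers 6 and 10 (45.5%, beside 34.6%). Wwtr1, which encodes the TEAD co-activator Taz, had 3 summits with doxycycline and 10 without, 7 of them uninduced-only. Tead1, a TEAD factor, had 0 induced-only and 4 uninduced-only summits, as had Fosl1, an AP-1 subunit. Of 16 genes of other ETS factors, 4 (25%, beside 15.6% of all genes) were higher and 6 (37.5%, beside 55.8%) lower. With equal numbers 7 (43.8%, beside 30.0%) were higher and 3 (18.8%, beside 34.6%) lower. Etv3, an ETS repressor, had 2 induced-only and 0 uninduced-only summits and Elf2, a broadly expressed ETS factor, 3 and 1. Etv2 itself (chromosome 7, 30633616 to 30636509) had 3 summits in each list, all shared, and summits do not say whether reads came from that gene or from the transgene.

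SWI/SNF subunit genes were close to all genes. Of 26, 4 (15.4%, beside 15.6% of all genes) were higher and 15 (57.7%, beside 55.8%) lower. With equal numbers 8 of 25 (32%, beside 30.0%) were higher and 9 (36%, beside 34.6%) lower. Smarca4 (chromosome 9, 21616106 to 21704230) had 4 summits with doxycycline and 6 without, 3 of them uninduced-only, and since a knockdown acts on RNA this does not check its level. Brd7, a bromodomain subunit of the PBAF form, had 3 induced-only and 0 uninduced-only summits. In the knockdown lists of day 2 it had 1 and 3. Arid1b, an alternative BAF subunit, had 6 and 11, and 7 and 3 with equal numbers. Of 20 cell cycle and p53 genes 1 (5%, beside 15.6%) was higher and 13 (65%, beside 55.8%) lower. With equal numbers 8 (40%, beside 30.0%) were higher and 7 (35%, beside 34.6%) lower. The 1 higher with all summits was E2f1, a factor of S-phase entry, with 3 and 0, while Trp53, for p53, had 1 and 7 (1 and 4 with equal numbers) and Ccnd2, a D cyclin, 0 and 5.

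Markers of other cells did not stand out on the induced side. Over all genes 15.6% were higher and 55.8% lower, and with equal numbers 30.0% and 34.6%. The numbers higher and lower were 0 and 5 of 9 macrophage genes with a summit, 0 and 5 of 9 skeletal muscle genes, 1 and 7 of 13 cardiac genes, 2 and 8 of 11 neural genes and 0 and 8 of 12 epithelial genes. With equal numbers they were 1 and 1 of 7, 1 and 2 of 9, 2 and 3 of 12, 3 and 5 of 11 and 0 and 6 of 10 in the same order. Of 20 housekeeping genes 1 was higher and 10 lower, and with equal numbers 5 and 6. Gapdh, a glycolytic enzyme gene, had 10 summits with doxycycline and 9 without, and Actb, for cytoplasmic actin, 6 and 8. Some fibroblast genes were taken as MEF markers after values were seen. Among them, Col1a1 had 5 and 8 summits, Thy1 1 and 4, Pdgfra 3 and 2 and Vim 7 and 8, while Col3a1 had 0 and 3.

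Over all genes, the highest differences in favour of doxycycline were mostly around repeats. Gas8, Dbndd1, Afg3l1 and Rhou adjoin the ribosomal RNA gene block of chromosome 8, where Gas8 had 30 induced-only and 12 uninduced-only summits. Apart from these, Sik3, a kinase of the salt-inducible family, had 8 induced-only summits and 1 uninduced-only summit. Of its 8, those at 46175690 and 46184952 recurred in induced knockdown MEF on day 2 and in induced MEF of day 1 and were absent from uninduced MEF, while 3 lay 1059 to 1282 bp from a partner. On the uninduced side, Gm38510 and Sp110 lie in a cluster of near-identical genes on chromosome 1 with 6 against 35 and 5 against 21 summits, and with equal numbers 10 against 8 and 6 against 9. Outside such clusters, Gse1 had 0 induced-only and 16 uninduced-only summits and Foxp1, a forkhead repressor, 4 and 19. With equal numbers these were 3 against 11 and 5 against 11.

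ETS words in promoters were counted in the same 300-base RefSeq windows, of which 32619 were used. On either strand, CAGGAAG occurred in 15.2% (11.7 to 19.2%) of 376 windows with an induced-only summit, in 12.2% (10.2 to 14.5%) of 909 with an uninduced-only summit, in 11.7% (10.9 to 12.5%) of 6824 with shared summits alone and in 13.4% of all windows. CCGGAAG, the form common in promoters of broadly used genes, occurred in 9.31% (6.57 to 12.7%) of windows with an induced-only summit, 13.6% with an uninduced-only summit, 23.5% with shared summits and 8.92% of all. The AP-1 word TGANTCA occurred in 6.12% (3.92 to 9.04%), 8.36% (6.64 to 10.4%), 4.07% and 7.85%. The intervals of the unshared classes overlap for both ETS words and for the AP-1 word. Of the 7 further words searched, the TEAD word GGAATG was in 14.1% of windows with an induced-only summit and 14.6% of all windows, and it shares the core GGAA with both ETS words, so that matches can overlap. The forkhead word TGTTTAC was in 5.05% (3.07 to 7.78%) of windows with an induced-only summit, 3.19% (2.15 to 4.55%) with an uninduced-only summit and 3.67% of all. The GATA word AGATAA was in 6.12%, 4.51% and 11.2%. For the RUNX word TGTGGTT the shares were 2.39%, 3.41% and 5.29%. The SOX word ACAATGG was found in 2.66%, 1.98% and 3.68%, and the E-box CANNTG in 64.6%, 64.0% and 72.3%. The CTCF word was in 0 of the windows with an induced-only summit and in 0.880% of those with an uninduced-only summit. Windows with shared summits alone held the TEAD word in 10.6%, forkhead in 2.17% (1.84 to 2.54%) and GATA in 4.07%. There the RUNX word was in 3.37%, SOX in 1.64% and the E-box in 58.0%. All windows had a median of 53% G and C bases. Windows with induced-only, uninduced-only and shared summits had 62%, 62.3% and 63%. The part of base content in these shares was not tested. Distal summits, the larger share of both unshared classes, lie outside these windows and their sequence was not analysed here.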

How the data were processed

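ATAC-seq libraries were aligned with Bowtie2 2.2.4 to mm10 and peaks were called with MACS2, per the submitters' processing notes, which also name HOMER. Trimming, duplicate removal, the transposase shift, a blacklist and the pooling of replicates are not given in the sources used here. The deposited score of a summit is the −log10 of its q value, with a lowest score of 1.30 in the day-1 knockdown lists (a q value of 0.05). Knockdown lists and those with no knockdown label differ in how their scores are written, so these arms cannot be told apart from processing and were set side by side only.

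Tables were computed with pandas 2.3.3 and numpy 2.4.6 in Python 3.11.15, intervals with scipy 1.17.1 and plots with matplotlib 3.10.9. Summits were matched within 250 bp and counted within 50 kb of 21631 RefSeq protein-coding genes (GRCm38.p6). The table has no strand, so gene ends replaced the planned start sites. Matching was tested on simulated data. No test was possible with 1 list per condition.

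The members and the 15 gene lists were chosen with earlier results of these data known. Named genes are, per list, the 4 highest and 4 lowest by induced-only minus uninduced-only summits, the 10 highest and lowest of all genes, the genes nearest the 10 highest-scoring summits of each class and of each strict set, and Etv2, Kdr, Smarca4, Prrx1, Gapdh and Actb. Genes of the recurrent sets, and the MEF markers, were added after their values were seen. Some genes that this rule names are not reported here. Alternatives were matching distance, equal numbers, the best summit per peak, a score limit, gene windows and, added after seeing the data, matching within 1 kb, start sites of the promoter table, wider lookup in the EB lists and removal of peaks of 20 or more summits. Sequence from chromosome 18 is not printed.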

Additional observations from a re-analysis of the deposited data

Results flagged for a closer look

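Only genes whose induced-only minus uninduced-only difference in knockdown MEF was at least 3, in either direction, on both days were considered. Under this limit 9 of the genes reported here had 1 sign on day 1 and the other on day 2. Reversals with a smaller difference on 1 day, as at Prrx1 and Mecom, are not listed. None of these differences between days was tested, and each rests on 1 list per condition. Day 1 was lower and day 2 higher for Meis1 (-4 and 3), Runx2 (-5 and 3), the AP-1 genes Fosb (-6 and 5) and Fosl1 (-4 and 3), the SWI/SNF gene Bicra (-5 and 3) and Mdm2, the ubiquitin ligase of p53 (-4 and 3). Day 1 was higher and day 2 lower for Col1a2 (3 and -6), Apba2, a neuronal adaptor gene next to a broad chromosome 7 peak (7 and -12), and E130308A19Rik (5 and -6).

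Summits outside the chromosomes compared were also called. The mitochondrial genome had 20 summits in the doxycycline list and 12 in the list without doxycycline, and chromosome Y had 74 and 39. Both lists were analysed without them, and the part of repeats or depth in these counts was not tested.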

How the results depend on the processing

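Induced-only summits numbered 13311 with matching within 100 bp, 4131 within 500 bp, 3193 within 1000 bp and 2982 with a score of at least 5, and uninduced-only summits 9088 with equal numbers. The shared share of the doxycycline list was 50.5% (100 bp), 84.6% (500 bp), 68.4% (equal numbers), 74.2% (best summit per peak) and 81.4% (score limit). The gene-end shares of induced-only and uninduced-only summits were 33.2% and 23.2% (100 bp), 12.8% and 13.8% (500 bp), 23.5% and 19.7% (equal numbers), 17.8% and 14.6% (best summit), 29.8% and 25.4% (score limit), and 31.6% and 23.8% within 2.5 kb. Presence of induced-only positions in induced knockdown MEF on day 2 was 34.7%, 57.4%, 51.2% (equal numbers) and 63.5% (score limit), and in induced MEF of day 1 it was 35.9%, 60.3%, 52.9%, 44.9% (best summit) and 67.5%, the first values at 100 and 500 bp. Endothelial genes with more induced-only summits numbered 20 with equal numbers and 3 with the score limit. Haematopoietic genes numbered 4 (100 bp), 5 (equal numbers), 1 (score limit) and 0 (10 kb window). The count of fibroblast genes with more uninduced-only summits stayed within 1.5 times its value of 46 under the alternatives run. With equal numbers, the equal list lengths hold the uninduced-only count near the induced-only count. The cause of the other shifts was not tested.

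Of 146 named genes with a difference, 9 changed sign with a 10 kb window (Bmpr2 1, Dbndd1 -1, Esam -1, Gm21119 -5, Krt18 1, Polr2a 1, Rhou -1, Rps18 1 and Sox18 -1), 11 with equal numbers (Actb 3, Amotl2 2, Arid1b 4, Csf1r 1, Gm38510 2, Sfi1 7, Sparc 1, Spic 1, Ublcp1 2, Zbtb46 1 and Zfp978 4), 1 within 100 bp (Zbtb46 1) and 2 within 500 bp (Etv1 -2 and Gm21119 -3). The sign was kept by 100, 118, 143 and 128 genes in these settings, and the others had a difference of 0. No paired analysis was possible because both replicates of a condition stand behind 1 list, and for the same reason no replicate could be left out. Summit number limits what weak positions can show.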
